A study of Mus musculus with 4 samples.

Results

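The regions described here are stretches of the mouse genome at which Bach1, Bach2 and Mafk were all found by chromatin immunoprecipitation and sequencing (ChIP-seq) in M1 cells. They were selected on the peak lists themselves: peaks of the 3 lists that shared at least 1 bp were merged, the mitochondrial genome was left out, and a region was kept when it held at least 1 peak of each factor. This gave 297 of 5408 merged regions, or 5.49% (95% Wilson interval 4.92 to 6.13). The interval, like all intervals of shares below, covers counting error only.

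M1 is a mouse myeloid leukemia cell line, and all samples came from cells without stimulation. There was 1 library per factor: an in-house antibody was used for Bach1 (A1-6), another in-house antibody for Bach2 (Bach2N2), and a commercial antibody to NF-E2 p18, an older name of Mafk, for Mafk. Input DNA without antibody was sequenced too, and its library was not analysed here separately. With 1 library per factor there is no replicate error for any value below, and the files do not tell how deeply each library was sequenced.

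Bach1 and Bach2 are transcription factors of the CNC family with a basic leucine zipper and a BTB domain. Each pairs with a small Maf protein such as Mafk, and the pair binds Maf recognition elements and mostly represses transcription. Bach1 is released from DNA when it binds heme, and is best known for repressing genes of heme breakdown, iron storage and antioxidant defence. Bach2 is best known in lymphocytes. Small Maf proteins have no activation domain of their own and also pair with other CNC factors or with each other. The study's title places these maps beside a double knockout of Bach1 and Bach2 in alveolar macrophages.

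Each peak carries 2 deposited measures. The pileup is the number of overlapping DNA fragments at the summit, the highest point of the peak. The fold enrichment is that pileup over the local background expected from the control, both as written by the peak caller the authors ran. Since these peaks chose the regions, their strengths are given as a description without any test. Gene names, motifs and region sequences are not given, because the positions are in mm9 and no mm9 genome or annotation was used here.

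Of 1168 regions with both Bach1 and Bach2 peaks, the 297 made up 25.4% (23.0 to 28). Of 418 regions with both Bach1 and Mafk peaks they made up 71.1% (66.5 to 75.2), and of 299 with both Bach2 and Mafk peaks 99.3% (97.6 to 99.8). For comparison, among regions without a Mafk peak 871 held both Bach factors, 203 Bach2 alone and 2578 Bach1 alone. Most regions with Bach2 thus held Bach1 also where Mafk had no peak. The 297 regions held 7.67% of the Bach1 peaks (297 of 3871), 21.5% of the Bach2 peaks (298 of 1385) and 17.1% of the Mafk peaks (300 of 1759). Nearly every one had a simple make-up: 293 of 297 held exactly 1 peak of each factor. At all 297 there was at least 1 bp common to a peak of each factor, so none was held together by a chain of peaks alone. The median width of the regions was 558 bp (quartiles 460 to 695).

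By fold enrichment, most of the strongest peaks of the Bach1 and Bach2 lists lay in these regions. Most of the strongest Mafk peaks did not, which was also true of the Mafk list as a whole. The 10 Bach1 peaks and the 10 Bach2 peaks of highest fold enrichment all lay in them, against 3 of the 10 highest Mafk peaks. Of the 100 highest, 72 Bach1 peaks, 65 Bach2 peaks and 11 Mafk peaks did. Of the whole lists, 7.67% of Bach1, 21.5% of Bach2 and 17.1% of Mafk peaks did. The interval of the Mafk share among the 100 highest, 6.25% to 18.6%, includes that of its whole list. Ranked by pileup instead, the counts were 36, 58 and 48 of 100. Of the 10 peaks of highest pileup, 0 Bach1, 8 Bach2 and 9 Mafk peaks lay in the regions, so the order of the factors depends on the measure.

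Bach1 fold enrichment at the 297 regions ran from 2.12 to 45.3 with a median of 12.2 (quartiles 7.72 to 17.4). It was at least 10 at 183 regions, or 61.6%, beside 11.7% of the whole Bach1 list. Bach2 ran from 2.17 to 24.4 with a median of 5.54 (4.10 to 8.14), and 46 regions, or 15.5%, reached 10, beside 4.48% of the Bach2 list. These shares describe the regions, and nothing is read from them, since the same values chose the members. Mafk ran from 2.02 to 17.3 with a median of 4.25 (3.38 to 5.14). It reached 10 at 8 regions, or 2.69%, beside 3.81% of the Mafk list.

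Placed within each factor's own list, the regions held high Bach1 peaks, moderately high Bach2 peaks and, in fold enrichment, low Mafk peaks. The median percentile by fold enrichment was 92.5 for Bach1, 71.5 for Bach2 and 31.9 for Mafk. By pileup it was 90.2, 70.2 and 73.2, so the Mafk peaks stood below the middle of their list by one measure and above it by the other. At the 121 regions with Bach1 and Mafk but no Bach2, Mafk was likewise lower by fold enrichment (47.2) than by pileup (65.7). By fold enrichment, the 871 regions with Bach1 and Bach2 but no Mafk had median percentiles of 72.6 for Bach1 and 51.3 for Bach2. Over the 297 regions, the control background had a median of 2.47 times the lowest of the list for Mafk, 2.47 for Bach1 and 2.43 for Bach2. Across the regions, rho of fold enrichment with background was -0.60 for Mafk, -0.50 for Bach1 and -0.34 for Bach2. Background was computed from pileup and fold enrichment, so a negative rho is partly built in. The part of background in the low Mafk percentile was not tested.

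**Figure D1:**
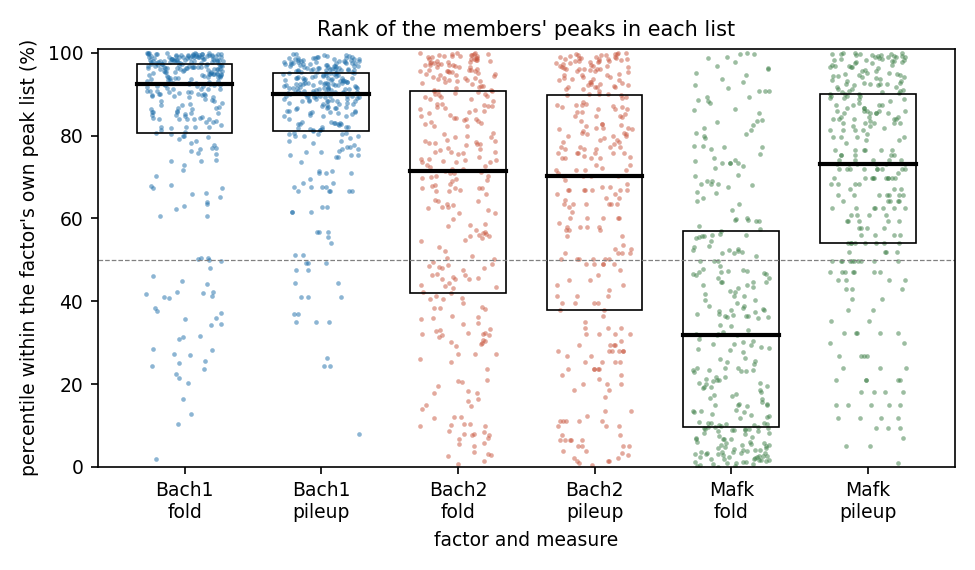
Percentile of each region's peak within its factor's own list, by fold enrichment and by pileup; each point is 1 of 297 regions, the thick line is the median and the box spans the quartiles. Mafk moves from a median percentile of 31.9 by fold to 73.2 by pileup, whereas Bach1 (92.5 and 90.2) and Bach2 (71.5 and 70.2) hardly move.

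By fold enrichment, few regions had strong peaks of all 3 factors. At 76 regions, 25.6% of the 297, both Bach factors were in the top 10% of their lists by fold enrichment. At 36 of these 76 Mafk lay at or below the median of its list. Over all 297 regions Mafk was above that median at 93, or 31.3%. Mafk thus lay at or below it more often over all 297 than at the 76. All 3 factors were in the top 10% of their lists by fold enrichment at 10 regions. Ranked by pileup, an alternative added after seeing the data, this held for 44 regions, of which 15 had a control background of at least 10 times the lowest in all 3 lists. All 3 were above their list's median in fold enrichment at 76 regions as well.

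Across the regions, Bach1 and Bach2 fold enrichments ranked alike, and Mafk followed either of them less closely. Spearman's rho was 0.83 for Bach1 and Bach2 (Pearson's r of log2 values 0.82), 0.48 for Bach1 and Mafk (0.48) and 0.40 for Bach2 and Mafk (0.40), each over 297 regions. These are descriptions across regions, which share the 3 libraries and the control and are not independent replicates. In pileup the values of rho were 0.82, 0.47 and 0.63. The background itself ranked almost the same in every pair of lists, with rho between 0.981 and 0.984. The Bach2 background was 1.34 times the Bach1 background in the median (quartiles 1.30 to 1.38), and the Mafk background 1.29 times (1.26 to 1.31). The median was also 1.34 at the 871 regions with Bach1 and Bach2 but no Mafk. It was also 1.29 at the 121 with Bach1 and Mafk but no Bach2. The lowest background was 4.18 in the Bach1 list, 5.61 in the Bach2 list and 5.39 in the Mafk list. These ratios thus reflect a scale between the lists and no trait of the 297 regions.

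**Figure D2:**
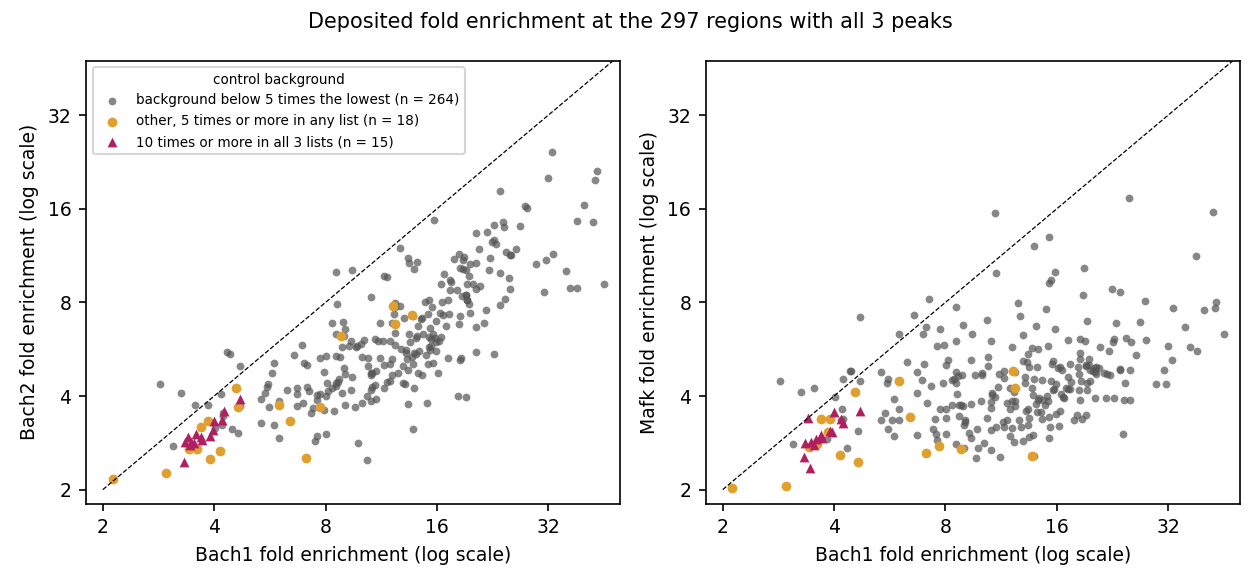
Bach2 (left) and Mafk (right) fold enrichment against Bach1 fold enrichment on log axes, 1 point per region, 297 in all; the dashed line marks equal values and colours mark the control background relative to the lowest in each list. Bach2 climbs with Bach1 (rho 0.83), Mafk less so (rho 0.48), and the 15 regions of highest background sit together at low values of all 3 factors.

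The fold enrichments kept a common order at most regions: Bach1 was above Bach2 at 288 of 297, Bach1 above Mafk at 285 and Bach2 above Mafk at 214. The full order Bach1, Bach2, Mafk was found at 208 regions, or 70.0% (64.6 to 75). The antibodies differ, so this order compares how far each library rose over its control and not how much of each protein was bound. Relative to Bach1, the median ratio of fold enrichments was 0.51 for Bach2 (quartiles 0.40 to 0.65) and 0.36 for Mafk (0.25 to 0.61). Mafk had the highest of the 3 values at 11 regions, where Bach1 was at 2.85 to 10.9, and Bach2 had it at 6.

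A small set of regions stood apart by their control background. At 15 regions the background was at least 10 times the lowest of the list in all 3 lists, from 11.4 to 21.3 times in the Bach1 list. Of these, 14 were narrow, 245 to 286 bp wide, on 10 chromosomes, and the remaining region, on chromosome 17 at 39979965 to 39985784, was the widest of all with 5820 bp. Their fold enrichments were low and close to each other: 3.31 to 4.70 for Bach1, 2.45 to 3.91 for Bach2 and 2.35 to 3.58 for Mafk. Their pileups were high and close to each other too, between 202 and 354 fragments across the 3 lists. The region on chromosome 6 at 46342391 to 46342676, for example, had 333 fragments in the Bach1 library, 354 in the Bach2 library and 339 in the Mafk library. Mafk pileup was 1.02 times Bach1 pileup in the median of these 15, against 0.40 times at the 264 regions whose background was below 5 times the lowest in each list. The corresponding values for Bach2 were 1.10 and 0.64 times. Pileups were compared as listed, without scaling between the libraries. Their scales differ, with a lowest background of 4.18 in the Bach1 list, 5.61 in the Bach2 list and 5.39 in the Mafk list. Equal pileups are thus not equal enrichments. In fold enrichment, the median ratios to Bach1 at the 15 and the 264 regions were 0.79 and 0.33 for Mafk, and 0.81 and 0.49 for Bach2. What raises the control there was not tested.

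**Figure D3:**
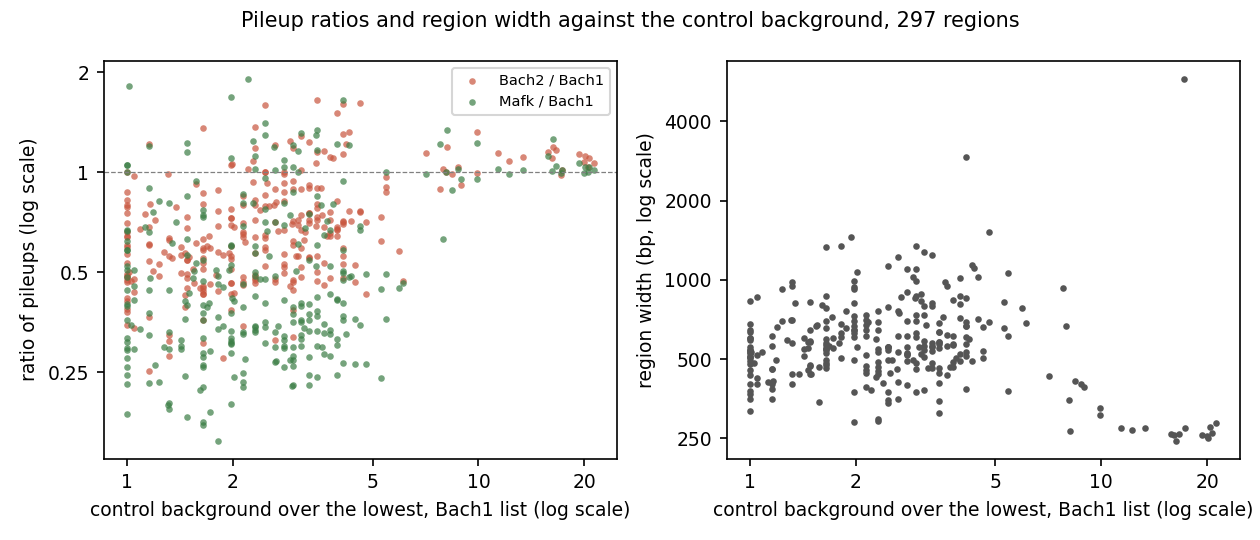
Left, pileup of Bach2 and of Mafk divided by Bach1 pileup against the control background in the Bach1 list relative to its lowest value, on log axes; right, region width against the same background; 297 regions in each panel. Above 10 times the lowest, the pileup ratios, not scaled between libraries, gather around 1 and all widths but 1 are between 245 and 286 bp.

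A further 18 regions had a background of at least 5 times the lowest in 1 list or more, with a median Bach1 fold enrichment of 4.60, Bach2 of 3.32 and Mafk of 2.78. Without these 18 and the 15 above, the median fold enrichments of the remaining 264 regions were 13.3 for Bach1, 5.82 for Bach2 and 4.45 for Mafk. In these 264, rho was 0.78 for Bach1 and Bach2, 0.37 for Bach1 and Mafk and 0.26 for Bach2 and Mafk, each below its value over all 297. By class, a Bach1 background of at least 10 times the lowest was found at 5.05% of the 297 regions (3.08 to 8.16), 1.03% of the 871 regions with Bach1 and Bach2 but no Mafk (0.54 to 1.95), 3.31% of the 121 with Bach1 and Mafk but no Bach2 (1.29 to 8.19) and 3.88% of the 2578 with Bach1 alone (3.20 to 4.70). At 5 times the lowest or more, the shares in the same order were 10.8%, 7.23%, 4.96% and 11.8%. The 297 were then not the highest class.

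How often a region with both Bach factors also held a Mafk peak is described here by the strength of its Bach peaks. The ranked peaks also chose the regions, and regions of the same libraries are not independent replicates. The shares are thus given without a test, and their intervals cover counting error only. With the 1168 such regions in 4 groups of 292 by Bach1 fold enrichment, the share with Mafk was 14% (10.5 to 18.5) in the weakest group, 9.25% (6.43 to 13.1) in the next, 24.3% (19.7 to 29.5) in the third and 54.1% (48.4 to 59.7) in the strongest. The weakest group stood above its neighbour, although their intervals overlap. Among the 1071 regions with a background below 5 times the lowest in the Bach1 and Bach2 lists, the shares were 5.97% (3.71 to 9.48), 11.6% (8.27 to 15.95), 25.1% (20.3 to 30.6) and 56.0% (49.98 to 61.8), so the weakest group was then the lowest. The intervals of the weakest group and its neighbour overlap here too. Ranked by Bach2 fold enrichment, all 1168 regions gave 15.4%, 20.2%, 25% and 41.1%. By background alone, 26.9% (22.9 to 31.3) of the 431 regions below 2 times the lowest held Mafk, as did 23.2% (20.1 to 26.6) of the 642 at 2 to 5 times and 23.9% (15.5 to 35.04) of the 71 at 5 to 10 times. The share thus differed little up to 10 times, and 15 of the 24 at 10 times or more held Mafk, or 62.5% (42.7 to 78.8).

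**Figure D4:**
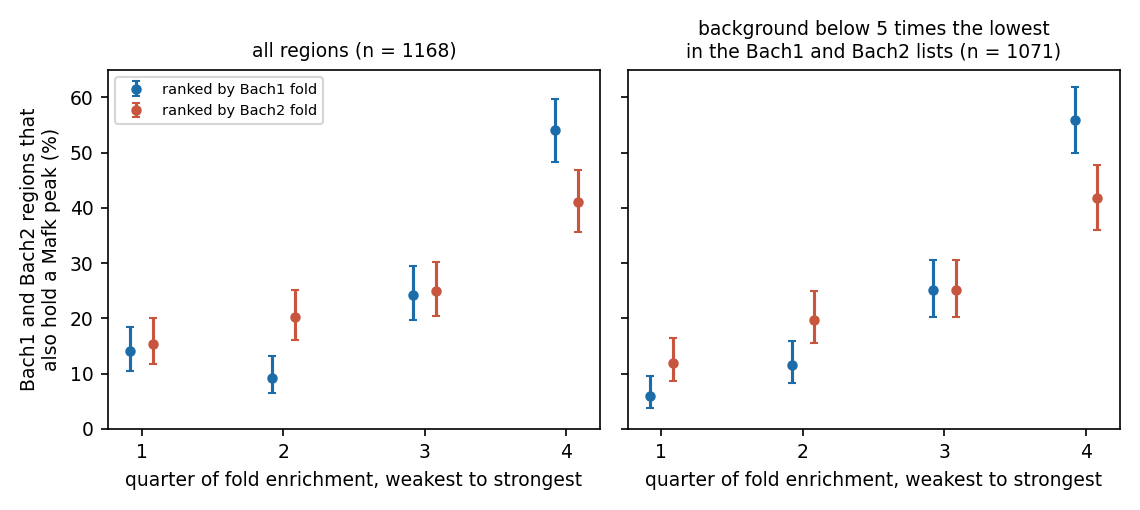
Share of regions with Bach1 and Bach2 peaks that also held a Mafk peak, in 4 groups from the weakest to the strongest fold enrichment, with Wilson 95% intervals; left, all 1168 regions; right, the 1071 of lower control background. The strongest group by Bach1 holds Mafk at 54.1% and 56.0%, and the weakest at 14% and 5.97%.

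The strengths of the Bach peaks overlapped between regions with and without a Mafk peak. The geometric mean of Bach1 and Bach2 fold enrichment had a median of 8.27 at the 297 regions and 5.37 at the 871 with Bach1 and Bach2 but no Mafk, and 128 of the 871 exceeded 8.27. The highest value was 30.2 with Mafk and 19.2 without. Bach1 fold enrichment had a median of 6.55 at these 871 and 5.40 at the 121 regions with Bach1 and Mafk but no Bach2, where Mafk had 4.81. Bach1 peaks were longest where all 3 factors met, with a median of 557 bp against 439 bp and 367 bp in those classes. In none of these comparisons was a test made, since the peaks define the classes.

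Within each region the 3 summits lay close together. All 3 fell within 50 bp of each other at 220 of 297 regions, or 74.1% (68.8 to 78.7), within 25 bp at 122 and within 10 bp at 37. The stretch from the first to the last summit had a median of 31 bp (quartiles 17 to 52). The median distance was 18 bp between Bach1 and Bach2, 17 bp between Bach1 and Mafk and 19 bp between Bach2 and Mafk, so no pair stood out as the closest. For comparison, Bach1 and Bach2 summits were 24 bp apart in the median at the 871 regions without Mafk. The binomial 95% interval of the median was 22 to 26 there and 15 to 21 at the 297. Bach1 and Mafk summits were 25 bp apart at the 121 without Bach2 (18 to 30, against 14 to 21). These intervals cover the spread across regions of 1 library per factor and are no test. Median Bach1 fold enrichment also differed, with 12.2 at the 297, 6.55 at the 871 and 5.40 at the 121. Its part in the distances was not tested. On chromosome 1 at 38711989 to 38712381 the 3 summits fell on the same base, 38712187, the only such region.

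By chromosome coordinate, the summits had no common side. The sites were not oriented by motif or strand, so these counts cannot show whether the summits keep a fixed side at their sites. Bach2 lay at a lower coordinate than Bach1 at 150 regions and at a higher one at 145, and Mafk at a lower one at 153 and at a higher one at 138. Among the 283 regions with 3 different summit positions, the Bach1 summit lay between the other two at 119, or 42.0% (36.4 to 47.9), the Bach2 summit at 86, or 30.4% (25.3 to 36.0), and the Mafk summit at 78, or 27.6% (22.7 to 33.0). The Mafk peak lay wholly inside the Bach1 peak at 260 regions, as did the Bach2 peak at 260. Median peak lengths were 557 bp for Bach1, 400 bp for Bach2 and 306 bp for Mafk, and the summit stood near the middle of each, at 51.0%, 50.8% and 50% of the peak's length in the median. The 148 regions of higher geometric mean of the 3 fold enrichments had a median summit spread of 26 bp, and the 149 of lower mean 35 bp.

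**Figure D5:**
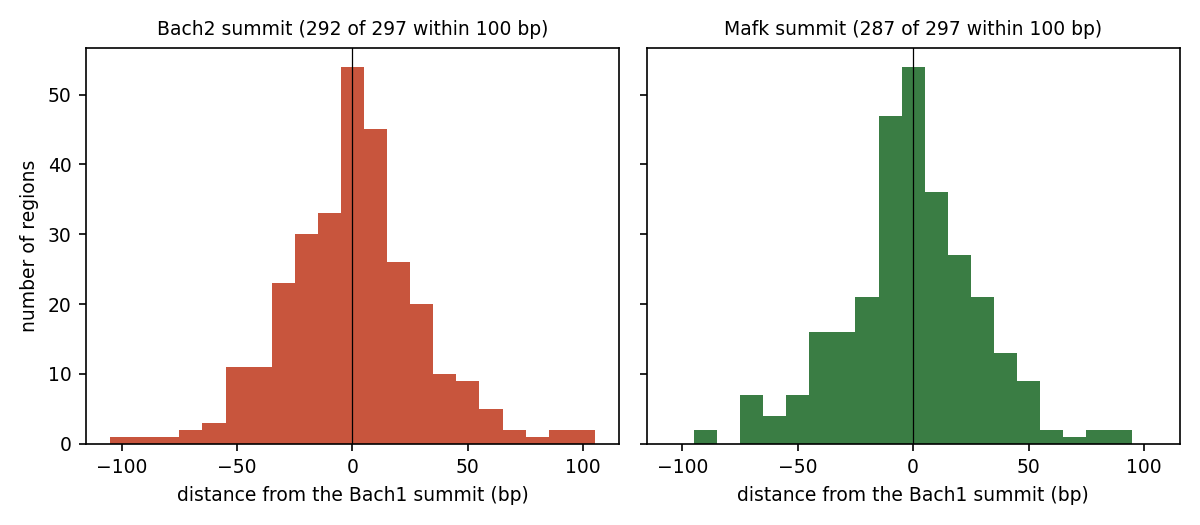
Distance of the Bach2 summit (left) and of the Mafk summit (right) from the Bach1 summit of the same region, in bins of 10 bp; distances run in the direction of the chromosome, and the few regions beyond the outermost bins are not drawn. Both distributions centre on the Bach1 summit, with 292 and 287 of 297 regions within 100 bp.

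The region of highest geometric mean of the 3 fold enrichments was on chromosome 2 at 69451101 to 69451965 (mm9). Bach1 had a fold enrichment of 42.4 there with 227 fragments, Bach2 14.5 with 99 and Mafk 15.7 with 103. Its summits lay at 69451524, 69451536 and 69451518, and its background was 1.05 times the lowest in the Bach1 list. The next, on chromosome 2 at 103985960 to 103986574, showed 43.3 (Bach1), 21.1 (Bach2) and 8.05 (Mafk), and its summits at 103986272, 103986274 and 103986275 fell within 3 bp. Both are thus strong in all lists at sites where the control is near its floor.

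Of the following regions, the one on chromosome 7 at 111009212 to 111010083 reached 43.0 in Bach1, 19.9 in Bach2 and 7.67 in Mafk. That on chromosome 3 at 146317596 to 146318583 had 38.2, 14.6 and 11.3, and that on chromosome 9 at 122380544 to 122381242 had 39.9, 16.5 and 7.58. Bach1 led by a wide margin in each. The region on chromosome 13 at 45719024 to 45719729 had the highest Bach2 value of any peak, 24.4, with 32.7 for Bach1, whereas its Mafk value of 5.21 was at percentile 59.5 of the Mafk list. On chromosome 19 at 10052713 to 10053459, 31.96 for Bach1 and 20.1 for Bach2 likewise came with only 5.78 for Mafk. The remaining members of the 10 highest were on chromosome 15 at 97616603 to 97617843 (27.7, 16.3 and 8.07, in the same order), chromosome 8 at 77612939 to 77614159 (33.0, 11.4 and 7.70) and chromosome 2 at 76546313 to 76547239.

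That last region had the highest Mafk value of the 297, 17.3 with 126 fragments, beside 25.1 for Bach1 with 154 fragments and 9.58 for Bach2 with 75. Its Mafk summit at 76546830 lay 106 bp beyond the Bach1 summit at 76546724. Strong Mafk peaks also occurred with Bach2 peaks outside the top 10% of the Bach2 list, here beside Bach1 peaks within the top 10% of theirs. On chromosome 8 at 28306480 to 28307010 Mafk reached 15.5, above Bach1 at 10.9 and Bach2 at 4.35. On chromosome 6 at 31767278 to 31768110 the values were 13 for Mafk, 15.2 for Bach1 and 5.75 for Bach2, and on chromosome 1 at 38605994 to 38606574 they were 12.2, 13.9 and 5.51. At the 18 regions whose Mafk peak was in the top 10% of its list, Bach1 had a median of 17.4 and Bach2 of 8.88, and at none of them did the background reach 5 times the lowest.

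The balance of the Bach factors varied between regions, from a Bach2 to Bach1 ratio of 0.20 to one of 1.54. The lowest ratio was on chromosome 7 at 28167760 to 28168745, with the highest Bach1 value of any peak, 45.3, and 9.14 for Bach2. Low ratios were also found on chromosome 1 at 45917165 to 45917726 (19.2 for Bach1 and 3.98 for Bach2), chromosome 6 at 94458932 to 94459587 (18.2 against 3.99), chromosome 17 at 89850028 to 89850501 (13.8 against 3.13) and chromosome 16 at 9132058 to 9133008 (38.2 against 8.92). Bach2 exceeded Bach1 at 9 regions. The highest ratio was on chromosome 9 at 104171617 to 104172002, where Bach1 had 2.85, Bach2 4.38 and Mafk 4.46, and the Bach2 and Mafk summits shared base 104171787 while that of Bach1 lay at 104171897. Next came chromosome 3 at 95097490 to 95097950 (4.33 for Bach1 and 5.54 for Bach2), chromosome 9 at 52909219 to 52909599 (3.26 against 4.08), chromosome 4 at 129722960 to 129723308 (4.41 against 5.46) and chromosome 9 at 58389565 to 58390067 (8.52 against 9.99). Of these 5 regions only the last had a Bach2 peak in the top 10% of its list.

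Of the 5 weakest regions by geometric mean, 4 were sites of high background. On chromosome 17 at 13745623 to 13745930 Bach1 had 2.12, Bach2 2.17 and Mafk 2.02, with a background of 9.89 times the lowest in the Bach1 list. The values on chromosome 5 at 149740432 to 149740843 were 2.96, 2.27 and 2.06 at 8.41 times the lowest, and those on chromosome 16 at 58566767 to 58567040 were 3.45, 2.78 and 2.35 at 17.3 times. The wide region of chromosome 17 named above had 3.31, 2.45 and 2.56. Only the fifth, on chromosome 10 at 105151965 to 105152312 (3.10, 2.77 and 2.80), had a background below 5 times the lowest.

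Regions with more than 1 peak of a factor numbered 4, and none had this for more than 1 factor; they were named after their values were seen. On chromosome 3 at 122958758 to 122960283, 1 Bach1 peak (15.2) and 1 Bach2 peak (5.07) spanned 2 Mafk peaks, of 3.71 with its summit at 122959185 and 5.81 with its summit at 122959871. Only the latter matched the Bach summits, at 122959864 and 122959869. On chromosome 5 at 66496557 to 66497477 the Mafk peak at the Bach summits had 3.81 and a further one, with its summit at 66497289, had 3.30. The others were on chromosome 6 at 3150832 to 3151557, with 2 Mafk peaks (3.13 and 2.43), and chromosome 7 at 89919614 to 89920545, with 2 Bach2 peaks (2.45 and 2.50).

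These 2 last regions also had the widest summit spreads, 295 bp and 374 bp, since the peak of higher fold enrichment stood for the region and was not the one nearer the Bach1 summit. Of single peaks, the widest spread was on chromosome 5 at 135838295 to 135839108, where the Bach1 summit at 135838647 and the Mafk summit at 135838652 lay 5 bp apart and the Bach2 summit at 135838914. On chromosome 6 at 31767278 to 31768110 the Bach2 summit at 31767573 and the Mafk summit at 31767829 fell on either side of the Bach1 summit at 31767742. On chromosome 16 at 11285974 to 11286628 the Mafk summit at 11286374 stood away from the Bach1 and Bach2 summits at 11286245 and 11286225. Wide spreads thus came with either Bach2 or Mafk as the distant summit.

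The shortest stretch common to all 3 peaks was 127 bp, on chromosome 1 at 133367113 to 133367718, where Bach1 had 9.77, Bach2 2.83 and Mafk 2.72. The next shortest were 182 bp on chromosome 11 at 19937793 to 19938111 and 191 bp on chromosome 8 at 14889948 to 14890323. Just outside, no region with Bach1 and Bach2 had a Mafk peak within 100 bp of its edge, and 2 of 871 had one within 1000 bp. The closest was on chromosome 2 at 62524064 to 62524512 (5.64 for Bach1 and 3.66 for Bach2), 384 bp from a Mafk peak of 2.52 that itself belongs to a neighbouring member at 62523213 to 62523912. Of regions with Bach1 and Mafk, the closest to a Bach2 peak was on chromosome 7 at 97190265 to 97190588, 321 bp from one of 5.82 that belongs to the member at 97190871 to 97191325. Of the 5 regions closest to the peak they lacked, 4 were in this way neighbours of a member. A missing peak was below the threshold of its list, which does not show that the factor was absent.

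The regions were spread over chromosomes 1 to 19 and X. Chromosomes 2 and 5 held the most, 27 each, and X held 3. As a share of all merged regions of a chromosome they ranged from 3.07% on chromosome 18 (5 of 163; 1.32 to 6.98) to 8.37% on chromosome 8 (21 of 251; 5.54 to 12.5), and these intervals overlap. The gap to the nearest other member had a median of 1807720 bp. Another member lay within 50 kb of 22 regions, and within 10 kb of 12, which formed 6 pairs.

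The closest pair, 2239 bp apart, was on chromosome 11 at 120491300 to 120491793 (Bach1 10.6, Bach2 8.31, Mafk 6.01) and 120494032 to 120494568 (6.40, 3.33 and 3.42). The pair at 88171359 to 88172033 and 88175095 to 88175643 of chromosome 10 had Bach1 values of 22.9 and 26.2, but Bach2 values of 5.46 and 11.9. The pair on chromosome 8, 4452 bp apart, joined the region of 2919 bp at 77605569 to 77608487 (23.1, 12.4 and 6.87) to that at 77612939 to 77614159. On chromosome 15 the region at 79158340 to 79159008 (4.64, 3.68 and 2.45) lay near that at 79163574 to 79164289 (17.4, 9.27 and 4.45). The other pairs were on chromosome 5 at 136044464 to 136044928 (8.54, 4.39 and 4.77) and 136048947 to 136049238 (4.69, 5.01 and 4.48), and within the stretch on chromosome 3 given next. These pairs were named after their values were seen. Stretches of 3 regions occurred on chromosome 3 from 121948181 to 122004638, where from first to last Bach1 went from 20.8 to 9.01, Bach2 from 11.9 to 6.59 and Mafk from 4.91 to 2.73, and on chromosome 5 from 91170873 to 91200968. In the latter the last region, at 91200339 to 91200968, had a Mafk value of 7.01 beside 10.4 for Bach1 and 2.49 for Bach2, while the first, at 91170873 to 91171543, had 4.28 beside 11.1 and 6.02. The 3 factors thus stepped down together along the first stretch, while in the other Mafk was highest where Bach2 was lowest.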

How the data were processed

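Bach1, Bach2 and Mafk were mapped by ChIP-seq in M1 cells, 1 library per factor. CASAVA 1.8, BWA 0.7.10, MACS2 2.1.0 and mm9 are named in the submitters' processing notes, without settings. Per the file headers, each deposited list holds, per peak, a pileup (a signal, in fragments) and a fold enrichment (a ratio to the control background). The peak names carry a q threshold; no q values were used.

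Peaks sharing at least 1 bp were merged with Python 3.11.15 and pandas 2.3.3, and 2 Bach1 peaks on the mitochondrial genome were left out. The peak of highest fold enrichment stood for its factor in a region. Background was computed as (pileup + 1) / fold enrichment - 1, with the pseudocount of 1 that MACS2 uses, and divided by the lowest of its list. Shares have 95% Wilson intervals and medians binomial ones. The merging was checked on simulated peaks. No test was made, since the peaks chose the regions.

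The regions, the rule for naming them and the groups were set with earlier results of these data known. Named were the 10 highest and 5 lowest by geometric mean of the 3 fold enrichments, the 5 highest by Mafk, the 5 highest and 5 lowest ratios of Bach2 to Bach1, regions with 2 or more peaks of at least 2 factors (there were 0), stretches of 3 or more within 50 kb, the 5 shortest common overlaps, the 5 nearest misses and the 5 widest summit spreads; of the overlaps and misses only the leading ones are printed. Stricter overlaps, stricter fold enrichments, pileup as the measure and subsets of regions were alternatives. Motifs and distances to genes, which had been planned with Fisher's exact test, were not run for want of mm9 sequence and annotation.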

Additional observations from a re-analysis of the deposited data

How the results depend on the processing

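Of 43 alternative values, 30 stayed within 1.5 times the main count or inside the 95% interval of the main value, and 13 did not. These intervals, also those of the correlations, take the regions as independent, which they are not. Subsets also share regions with the main set. The intervals thus serve as a yardstick only and are no test. The 297 regions fell to 175 with a reciprocal overlap of 50%, to 144 with a fold enrichment of at least 4 in each list and to 61 with at least 5. Summits within 100 bp left 281, and 1 bp common to all 3 left 297. With the reciprocal overlap, the median fold enrichment was 9.40 for Bach1 and 4.85 for Bach2. By pileup, the median percentile was 90.2 for Bach1 and 73.2 for Mafk. The rank correlation of Bach2 and Mafk was 0.63 in pileup. Without regions of background at 5 times the lowest or more, an alternative partly chosen after seeing the data, the rank correlation was 0.78 for Bach1 and Bach2, 0.37 for Bach1 and Mafk and 0.26 for Bach2 and Mafk. Within 10 kb instead of 50 kb, 12 regions had another member nearby instead of 22. The cause was not tested, other than that stricter rules admit fewer peaks or pairs by construction. Median summit distances stayed between 17 and 20 bp under every alternative run. Motif windows and distances to transcription starts were not varied, since neither was computed. No paired analysis was possible because there is a single library for every factor, so no replicate could be left out either. Regions with all 3 peaks in the top 10% of their lists numbered 44 by pileup instead of 10 by fold enrichment. Sequencing depth is unknown here, and its part in which sites hold all 3 peaks was not tested.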
